A study of Mus musculus with 43 samples.

Results

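In the lasered mouse retina, 10 genes of the extracellular matrix were followed, taken by symbol from the 54532 genes of the deposited count table. They are the fibrillar collagen chains Col1a1, Col1a2 and Col3a1, the fibril-associated chain Col9a3, the basement membrane chains Col4a1, Col4a2 and Col18a1, fibronectin (Fn1), and the tissue inhibitors of metalloproteinases Timp1 and Timp3. Laser burns through the pigment epithelium and Bruch's membrane were used to induce choroidal neovascularization (CNV) in C57BL/6J mice aged 9 weeks, and retinal RNA was sequenced 3, 7 or 14 days after the laser (dpl, days post laser). Control mice received the laser alone, and SCFA mice also drank short-chain fatty acids (67.5 mM acetate, 40 mM propionate and 25 mM butyrate) from before the laser until collection. The gram-per-litre doses given beside these molar values do not match them for propionate and butyrate, so those 2 doses are uncertain. Males and females of both treatments at 3 days make 12 groups with 43 libraries, and every library pooled 2 lasered retinas of the same group. No group without laser was analysed here, so all values describe lasered eyes, and the labels name retina as the tissue.

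Fibrillar collagens are secreted as triple helices and carry the tensile load of scars and stroma, and type I collagen is built from the Col1a1 and Col1a2 chains, while type III is made of Col3a1 alone. Type IV collagen, made of Col4a1 and Col4a2 chains, is the network of basement membranes such as those of retinal vessels and Bruch's membrane, and collagen XVIII (Col18a1), which yields the fragment endostatin, is bound to the same membranes. Col9a3 codes for a chain of type IX collagen, which coats fibrils in cartilage and vitreous. Fibronectin is deposited early in wounds and binds integrins. Timp1 and Timp3 block the enzymes that degrade this matrix. Timp1 is an injury-induced gene of reactive glia, and TIMP3 mutations cause a macular dystrophy with CNV.

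Sequence from RefSeq (GRCm38.p6) was available for 7 of the 10 genes. Col4a1 and Col4a2 lie head to head on chromosome 8. Their transcription starts overlap, so that both genes share the first 22 bases at chr8:11312805-11312826 (written on the strand of Col4a2), and they are shown because the pair is compared below. The capitals mark a GC box (GGGCGG).

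Col4a1 and Col4a2: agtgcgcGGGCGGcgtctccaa

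For Col3a1, which had the largest change between days of the genes in that table, the 250 bases before the start, chr1:45311288-45311537 on the plus strand, are given with the letters TATAAA in capitals, at -117 to -112 from the start.

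Col3a1: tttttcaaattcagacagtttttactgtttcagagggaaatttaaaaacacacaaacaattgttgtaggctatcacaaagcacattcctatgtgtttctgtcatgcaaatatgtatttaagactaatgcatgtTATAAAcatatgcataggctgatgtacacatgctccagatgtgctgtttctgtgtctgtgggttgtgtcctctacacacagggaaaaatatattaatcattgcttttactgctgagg

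On both strands, TATAAA was present in 12.4% of the 32851 promoter windows of that length, and in 1 of the 8 windows of the genes studied, that of Col3a1. A CCAAT box (CCAAT) was present in 5 of the 8 windows, against 33.8% of all, and the GC box in 5 of the 8, against 32.7%. The AP-1 letters TGANTCA (6.75% of all windows) were found in 0 of the 8. These are matches of letters, not binding sites.

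All 10 genes were counted in every library. Each library held between 14826957 and 21507527 counts (median 17683615), and values are given as CPM, a gene's counts relative to its library's total after edgeR's TMM scaling, which moved fitted libraries by factors of 0.921 to 1.06. On this scale 3 counts, taken as the floor, correspond to 0.136 to 0.208 CPM. That floor covers counting error only. Timp1 was at or under it in 2 of the 42 libraries fitted, and the other 9 genes in none. Female SCFA 3 dpl replicate 2 was left out of all fits, because its summed CPM of 10 lens markers was 209600, against 1.888 to 523.4 in the others. Rod photoreceptor markers (8 of 8 detected in all libraries, 48580 to 101400 CPM in sum) dominated the 42 libraries. The 8 fibroblast and stroma markers summed to 15.17 to 53.33 CPM with at least 4 of them detected. The 8 pigment epithelium markers summed to 82.9 to 827.7 CPM. Of 22 female libraries 1, female control 7 dpl replicate 2, held Y-linked counts, and no result below turned on it. In these bulk libraries, fewer cells of a type and less RNA per cell cannot be told apart.

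Corrected for exon length, Col18a1 was the highest gene, with a median over 42 libraries of 8.73 CPM per kb. Col9a3 (4.25), Timp3 (3.73), Col4a2 (3.298), Col4a1 (3.293) and Fn1 (2.97) followed in CPM per kb. Timp1 was lower at 1.28 CPM per kb. The fibrillar chains were at the bottom, with Col1a2 at 0.985, Col1a1 at 0.270 and Col3a1 at 0.183 CPM per kb. Thus the 2 chains of type I collagen differed in level, and the lasered retina gave more Col1a2 than Col1a1 signal per length.

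The same low genes varied most between libraries. Timp1 ranged 106-fold, from 0.109 to 11.5 CPM, Col3a1 50.4-fold, from 0.393 to 19.8 CPM, and Col1a1 30.7-fold, from 0.536 to 16.5 CPM. The type IV chains varied least, by 2.29-fold for Col4a1 (16.2 to 37.0 CPM) and 2.67-fold for Col4a2 (13.0 to 34.6 CPM). For each gene the 12 groups were ordered by their means. In all 10 genes the libraries of each group overlapped those of the next group, in 11 of 11 neighbouring pairs. Neighbours in such an order have the closest means, so groups further apart in it can still be separate. Col1a1, Col1a2, Col3a1, Fn1 and Timp1 had their highest mean in male control retinas at 3 dpl.

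Where genes overlap on opposite strands, reads can be shared, and the strand setting of the counting is not given in the sources used here. In GENCODE M21, exons of Timp3 share 1733 bases with those of Syn3, exons of Fn1 share 292 bases with Apol7d, and exons of Col9a3 share 234 bases with Tcfl5.

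**Figure D1:**
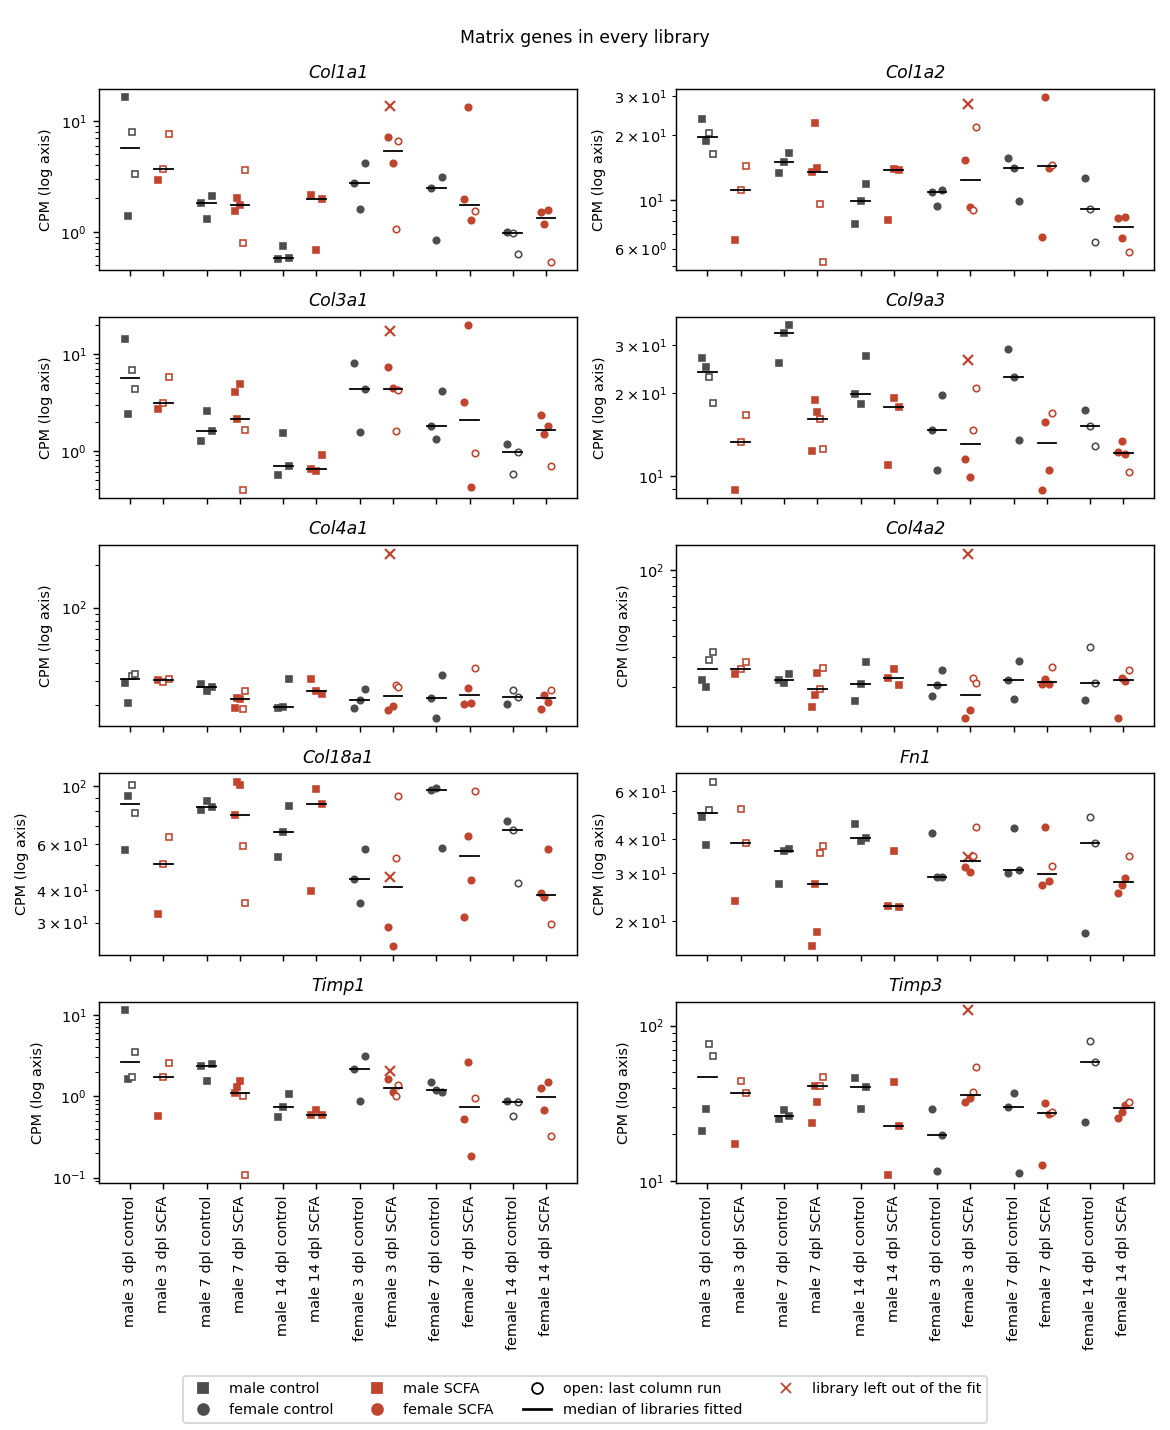
CPM of the 10 genes (log axis) in every library, by sex, day and treatment. Squares are males and circles females, grey is control and red SCFA, open symbols are libraries of the last column run, black lines are group medians and the cross is the library left out of the fits. Col1a1, Col3a1 and Timp1 spread over more than a decade, while Col4a1 and Col4a2 stayed between 13.0 and 37.0 CPM outside the cross.

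To ask how SCFA affected the matrix genes, SCFA and control libraries were compared within each sex and day. A single gene passed, in a single comparison: Col9a3 was lower with SCFA in males at 7 dpl. Male controls at 7 dpl had 25.7, 33.3 and 35.4 CPM of Col9a3 (31.5 ± 5.10, SD, n = 3), and SCFA males had 12.3, 18.9, 17.2, 16.1 and 12.6 CPM (15.4 ± 2.90, SD, n = 5). Every SCFA library was below every control library. The log2 fold change was -1.07 (SE 0.24), with an adjusted p of 0.00248 in edgeR's quasi-likelihood test over 18173 genes. For a call, the fold change had to exceed 1 on the log2 scale in either direction, with an adjusted p under 0.1. By this rule 3.49% of all genes tested were called in males at 7 dpl (635 genes), and 1.13% were lower, against 1 of the 10 matrix genes.

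The Col9a3 call lies close to the fold threshold, and 2 of 13 alternatives ended it, the first column run alone and the libraries that the study listed (-0.98, edgeR adjusted p 0.0158). Without male SCFA replicate 1 or without male control replicate 3 at 7 dpl the log2 fold change was -0.98 in either case. All 3 controls at 7 dpl belong to the first 31 columns of the table, and SCFA replicates 4 and 5 to the last 12. Among libraries of the first run alone it was again -0.98 (adjusted p 0.0104, edgeR). SCFA replicates 1 and 3 had the lowest rod marker sums of all libraries, and without both the value was -1.05 (adjusted p 0.0562, edgeR). Summed marker levels separated the same groups without overlap for 3 of 10 lists. In this comparison 30.7% of all genes had an unadjusted edgeR p under 0.05, and the share of all genes without overlap is not given here. Pigment epithelium markers (8) were lower with SCFA, at 193.2 to 444.3 CPM against 480.9 to 571.6 CPM in controls, while endothelial (149.1 to 214.3 against 127.2 to 136.4 CPM) and mural cell markers (105.3 to 182.2 against 96.67 to 103.3 CPM, 8 in each list) were higher. Microglia and macrophage markers (60.93 to 122.9 against 117.9 to 160.5 CPM), gliosis markers (118 to 302.8 against 240.9 to 373.8 CPM) and Müller glia and astrocyte markers (5669 to 10930 against 5022 to 6357 CPM) overlapped in sum. Among single gliosis markers, Edn2 (log2 fold change -1.75, SE 0.42) and Lcn2 (-1.31, SE 0.35) were called lower by edgeR. Glul of the Müller glia and astrocyte list (1.02, SE 0.19) and Igf2 of the stroma list (1.34, SE 0.50) were called higher. The part of these differences in the Col9a3 result was not tested.

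Another 2 of the genes passed the adjusted p alone in males at 7 dpl. Fn1 had 27.4, 36.1 and 36.9 CPM in controls and 16.2, 27.5, 18.4, 35.5 and 37.7 CPM with SCFA. The groups overlapped, and replicates 4 and 5 of the last column run were as high as the controls. The log2 fold change of Fn1 was -0.58 (SE 0.21, edgeR adjusted p 0.0498). Without SCFA replicates 1 and 3 it was -0.33 (adjusted p 0.482), with the libraries that the study listed it was 0.01 (adjusted p 0.98), and with single libraries left out the adjusted p reached 0.186. Col4a1 had 25.2 to 28.3 CPM in controls and 18.9 to 25.3 CPM with SCFA, with a log2 fold change of -0.44 (SE 0.17, edgeR adjusted p 0.0779) that was -0.48 (adjusted p 0.214) without SCFA replicates 1 and 3, and the adjusted p reached 0.188 with single libraries left out. At an adjusted p under 0.1 and any fold, 10.3% of all genes were lower, against 3 of the 10 matrix genes. The median log2 fold change of the 10 genes was -0.25, and that of all genes -0.03.

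Other matrix genes of males at 7 dpl changed in both directions. Of 6 other type IX and cartilage-type genes, 4 were tested and 1 rose, Hapln1, a link protein of hyaluronan nets (log2 fold change 1.40, SE 0.27, edgeR adjusted p 0.000766). The partner chains of Col9a3 were near 0, with -0.03 for Col9a1 and -0.17 for Col9a2 on the log2 scale (SE 0.21 and 0.25). Adamts5, an aggrecan-cleaving protease, rose by 1.60 (SE 0.27), the collagen crosslinking enzyme Lox by 2.02 (SE 0.79) and the collagen receptor subunit Itga2 by 1.29 (SE 0.47), each as log2 fold change. Ccn1, a matricellular protein, fell by 1.16 (SE 0.47) on the log2 scale. Of 17 other basement membrane genes 0 were called by edgeR, and 5 were lower at an adjusted p under 0.1 without the fold threshold, among them Col4a4 (log2 fold change -0.60) and Col4a6 (-0.95). None of the 7 other fibrillar and beaded-filament collagens was called.

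In the remaining 5 comparisons 0 of the 10 genes were called by edgeR or DESeq2. The background in these was 0.011% of genes in males at 3 dpl, 1.42% in males at 14 dpl, 0.121% in females at 3 dpl, 0.149% in females at 7 dpl and 0% in females at 14 dpl. Over all 60 values of 10 genes and 6 comparisons, 12 had an unadjusted edgeR p under 0.05. Among all genes, 3.19% (females at 14 dpl) to 30.7% (males at 7 dpl) had such a p. For the 10 genes edgeR and DESeq2 each made 1 call. The log2 fold changes ran from -1.21, for Timp1 in males at 3 dpl, to 1.45, for Col3a1 in females at 7 dpl (SE 0.71, edgeR adjusted p 0.283).

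Col9a3 was lower on average with SCFA in each comparison. Male controls at 3 dpl had 26.9, 25.1, 22.9 and 18.5 CPM and SCFA males 8.89, 13.3 and 16.7 CPM. These groups did not overlap, with a log2 fold change of -0.89 (SE 0.26, edgeR adjusted p 0.224). At 14 dpl male controls had 19.8, 18.3 and 27.3 CPM and SCFA males 11, 19.3 and 17.8 CPM, which overlapped (-0.44, SE 0.27). Female controls had 14.7, 10.5 and 19.7 CPM at 3 dpl, and SCFA females 11.5, 9.89, 14.7 and 20.9 CPM, and these groups covered the same range (-0.13, SE 0.27). At 7 dpl female controls had 29.1, 23.0 and 13.5 CPM and SCFA females 8.89, 15.8, 10.5 and 16.9 CPM, with an overlap through control replicate 3 (-0.79, SE 0.26, edgeR adjusted p 0.128). At 14 dpl females had 17.5, 15.3 and 12.8 CPM without and 12.2, 13.4, 12 and 10.4 CPM with SCFA (-0.29, SE 0.27).

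Averaged over both sexes and the 3 days, Col9a3 had a log2 fold change of -0.60 (SE 0.11, edgeR adjusted p 9.26e-05), which is below the fold threshold. Of the 23 SCFA libraries fitted, 22 were under the control median of 19.8 CPM. Control medians in such counts pool both sexes and all days. The control group means of Col9a3 ran from 15.0 CPM (females at 3 dpl) to 31.5 CPM (males at 7 dpl). SCFA and control are unevenly spread over the column runs. Means of log2 CPM were therefore also compared within each sex, day and run that held both treatments. Col9a3 was lower with SCFA in 8 of 8 such sets, by 0.43 to 1.53 on the log2 scale. In 3 of these sets, both ends of that range included, 1 treatment had a single library, and in the other 5 sets the differences were -0.97 to -0.44. The average remained between -0.63 and -0.55 when any 1 library was left out, and was -0.80 (adjusted p 0.000105) in the first column run alone.

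Fn1 and Col18a1 had smaller average differences. For Fn1 the log2 fold change was -0.36 (SE 0.089, edgeR adjusted p 0.00237), with 19 of 23 SCFA libraries under the control median of 38.8 CPM, and SCFA was lower in 7 of 8 sets of the same sex, day and run, and in 5 of the 5 with more than 1 library of each treatment. In males at 14 dpl Fn1 had 45.5, 39.5 and 40.6 CPM in controls and 22.8, 36.1 and 22.6 CPM with SCFA, without overlap, at a log2 fold change of -0.62 (SE 0.23) and an edgeR adjusted p of 0.1003, just over the threshold. Female Fn1 values overlapped between treatments at all 3 days. The average log2 fold change of Col18a1 was -0.34 (SE 0.15, edgeR adjusted p 0.098), and the adjusted p reached 0.191 with single libraries left out. It was lower in 6 of 8 sets of the same sex, day and run, but in 3 of the 5 with more than 1 library of each treatment, and ran from 35.5 to 101 CPM in 19 controls and from 24.3 to 104 CPM in 23 SCFA libraries. For this average, 0.677% of all genes were called by edgeR, and 0 of the 10 matrix genes by edgeR and by DESeq2. An unadjusted edgeR p under 0.05 was found for 3 of the 10 and for 39.5% of all genes. At an adjusted p under 0.1 and any fold, 19% of all genes were lower, and 3 of the 10 matrix genes. In the same average Ccn1 fell by 1.503 (SE 0.21) on the log2 scale.

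**Figure D2:**
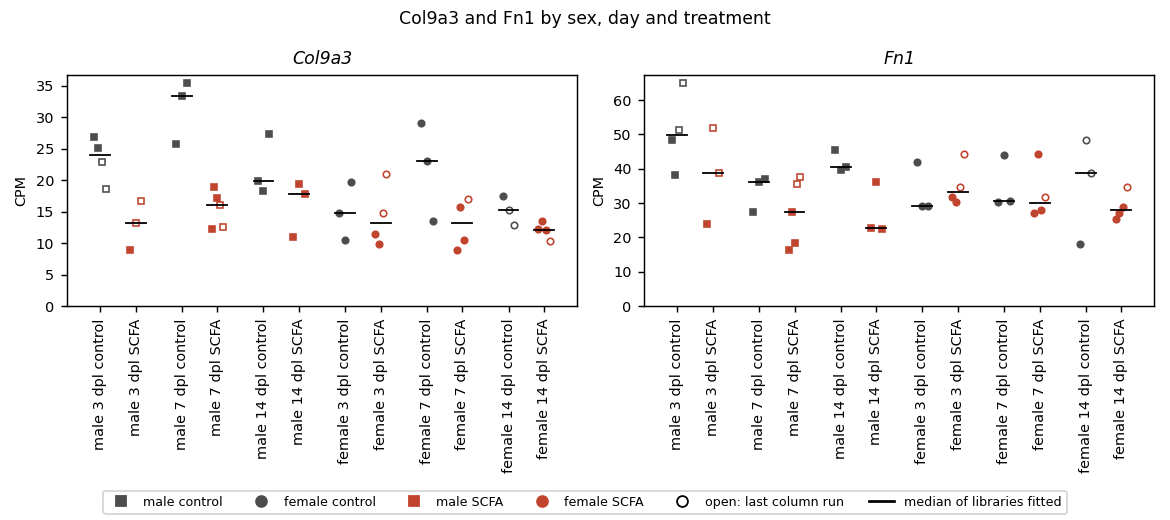
CPM of Col9a3 and Fn1 (linear axes from 0) per library, by sex, day and treatment, with group medians as black lines and libraries of the last column run as open symbols. The 5 SCFA males at 7 dpl lie at 12.3 to 18.9 CPM of Col9a3, below the 3 controls at 25.7 to 35.4 CPM, while the Fn1 groups overlap in most pairs.

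Timp1 was below the control median of 1.5 CPM in 18 of 23 SCFA libraries, with an average log2 fold change of -0.49 (SE 0.27, edgeR adjusted p 0.166) that was not called. The largest difference was in males at 3 dpl, where controls had 11.5, 1.64, 1.74 and 3.51 CPM and SCFA males 0.574, 1.73 and 2.58 CPM. The control value of 11.5 CPM, in replicate 1, was the highest of all libraries, and the other 3 controls overlapped the SCFA males (log2 fold change -1.21, SE 0.60, edgeR adjusted p 0.415). For Timp3 the average was -0.20 (SE 0.14), and for Col1a2 -0.03 (SE 0.15). Col1a1 and Col3a1 had averages of 0.60 (SE 0.30, edgeR adjusted p 0.14) and 0.34 (SE 0.31), above 0 but not called. The 95% intervals of the average were narrow for the type IV chains, -0.18 to 0.12 for Col4a1 and -0.30 to 0.01 for Col4a2 on the log2 scale.

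To follow the matrix genes after injury, days were compared within each treatment over both sexes. Col1a1 and Col3a1 fell from 3 to 14 dpl in both treatments. In controls at 3 dpl, Col1a1 ranged from 1.38 to 16.5 CPM with a median of 3.36 (n = 7), at 7 dpl from 0.838 to 3.15 with a median of 1.95 (n = 6), and at 14 dpl from 0.563 to 0.988 with a median of 0.684 CPM (n = 6). The ranges at 3 and 14 dpl did not overlap, and the 14 dpl values rest on 9 to 17 counts per library. The log2 fold change of Col1a1 from 3 to 14 dpl was -2.57 (SE 0.57, edgeR adjusted p 0.0682).

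In controls Col3a1 ranged from 1.56 to 14.3 CPM (median 4.38) at 3 dpl, from 1.26 to 4.15 (median 1.71) at 7 dpl and from 0.563 to 1.54 CPM (median 0.835) at 14 dpl. Again 3 and 14 dpl did not overlap, although the lowest value at 3 dpl was just above the highest at 14 dpl. The log2 fold change of Col3a1 was -2.55 (SE 0.57, edgeR adjusted p 0.0682). In this comparison 0.0935% of all genes were called (17 genes, all lower), 2 of them Col1a1 and Col3a1.

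With SCFA, Col3a1 went from 1.61 to 7.43 CPM (median 4.23, n = 7) at 3 dpl to 0.623 to 2.36 CPM (median 0.906, n = 7) at 14 dpl. The ranges overlapped, and the log2 fold change was -2.496 (SE 0.58, edgeR adjusted p 0.0504). Col1a1 went from 1.05 to 7.64 CPM (median 4.20) to 0.536 to 2.16 CPM (median 1.51), with overlap, at a log2 fold change of -1.99 (SE 0.53, edgeR adjusted p 0.0975). Here 0.193% of all genes were called, and again the 2 fibrillar chains. At 7 dpl the SCFA libraries spread widely, from 0.393 to 19.8 CPM for Col3a1 and from 0.787 to 13.5 CPM for Col1a1, and both upper ends are female SCFA 7 dpl replicate 2.

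These day calls depended on single libraries. Directions were the same with each library left out, with log2 fold changes from -2.82 to -2.22 for Col3a1 and from -2.75 to -2.24 for Col1a1 in controls, but the 4 calls became 1 or 2 without any 1 of 20 libraries of 3 or 14 dpl. The weakest was Col1a1 with SCFA, whose call was lost without any 1 of 28 of the 42 libraries, at an adjusted p of up to 0.285. In the first column run alone 0 genes were called by edgeR, at log2 fold changes of -2.58 (adjusted p 0.835) and -2.68 (0.615) in controls and -1.79 (0.603) and -1.44 (0.607) with SCFA for Col3a1 and Col1a1. DESeq2 called the same 4 values, with adjusted p of 0.0038 and 0.0081 for Col1a1 and Col3a1 in controls and 0.0324 and 0.00593 with SCFA.

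Col1a2, the other chain of type I collagen, did not pass. It had medians of 16.3, 14.6 and 9.52 CPM in controls and of 11.2, 14.1 and 8.33 CPM with SCFA at 3, 7 and 14 dpl, and its 14 to 3 dpl log2 fold changes were -0.57 (SE 0.26) and -0.53 (SE 0.27). Timp1 had medians of 2.17, 1.52 and 0.798 CPM in controls. Its fold change from 3 to 14 dpl was -1.88 on the log2 scale (SE 0.47), not called by edgeR (adjusted p 0.172) but called by DESeq2 (adjusted p 0.0206). With SCFA the Timp1 medians were 1.37, 1.01 and 0.678 CPM, at -1.27 (SE 0.50, edgeR adjusted p 0.222). DESeq2 made 1 further call, Col3a1 from 7 to 14 dpl with SCFA (log2 fold change -1.98, adjusted p 0.0306, against 0.105 in edgeR). In the comparisons between neighbouring days 0 of the 10 genes were called by edgeR, beside a background of 0% in 3 of them and 0.0385% from 7 to 14 dpl with SCFA.

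The log2 fold changes of the basement membrane chains, Fn1, Col9a3 and Timp3 from 3 to 14 dpl lay between -0.18 and 0.51 in controls and between -0.10 and 0.31 with SCFA, and 95% intervals for Col4a1 were -0.42 to 0.10 and -0.24 to 0.29. In controls, Col9a3 and Col18a1 were higher at 7 dpl than at the days around it, without a call. For Col9a3 the log2 fold change was 0.52 (SE 0.19, edgeR adjusted p 0.572) from 3 to 7 dpl and -0.56 (SE 0.20, adjusted p 0.39) from 7 to 14 dpl, and for Col18a1 0.52 (SE 0.27) and -0.45 (SE 0.28). With SCFA the same values of Col9a3 were 0.10 (SE 0.18) and -0.00 (SE 0.18), and those of Col18a1 were 0.53 (SE 0.26) and -0.22 (SE 0.25). The median of the 10 genes was -0.17 in controls and -0.04 with SCFA, against 0.01 and 0.02 for all genes.

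Among all genes called from 3 to 14 dpl, 17 of 17 in controls and 34 of 35 with SCFA were lower. The other matrix and marker genes listed that were called were likewise all lower. In controls these were Mmp12, a macrophage metalloproteinase (log2 fold change -2.82, SE 0.63), Spp1 (osteopontin, -1.03), Cd68 (-1.44) and Lyz2 (-1.45). With SCFA they were Mmp12 (-3.23, SE 0.72), Spp1 (-1.15), Thbs1 (-1.21), Lox (-2.04), Lyz2 (-1.22), the glial filament gene Gfap (-1.09) and the stroma genes Lum (-2.86), Dcn (-2.04) and Pi16 (-1.54). None of the other fibrillar (7), basement membrane (17) or type IX and cartilage-type genes (4 tested) was called in either treatment. The 10 microglia and macrophage markers summed to 80.08 to 194.1 CPM at 3 dpl and 60.92 to 93.3 at 14 dpl in controls, and to 71.84 to 147.9 and 54.66 to 91.36 CPM with SCFA. Gliosis markers (8) did not overlap between these days in controls, with 213.9 to 456.6 CPM at 3 dpl and 148.2 to 204.2 CPM at 14 dpl, and overlapped with SCFA (165.5 to 309 and 120.5 to 212.9 CPM). Fibroblast and stroma markers summed to 18.59 to 35.61 and 17.42 to 26.6 CPM in controls and to 20.12 to 45.72 and 15.17 to 26.57 CPM with SCFA. Their part in the fall of Col1a1 and Col3a1 was not tested.

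**Figure D3:**
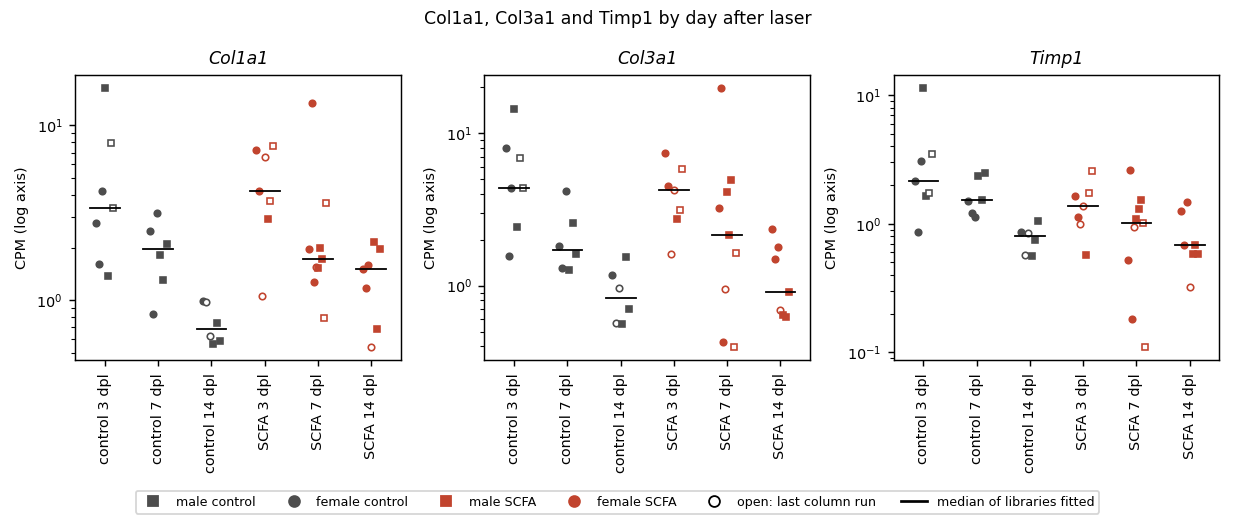
CPM (log axis) of Col1a1, Col3a1 and Timp1 per library at 3, 7 and 14 dpl in control and SCFA retinas, with medians as black lines, males as squares and females as circles. Control medians of Col1a1 step down from 3.36 to 1.95 and 0.684 CPM, and female SCFA 7 dpl replicate 2 stands above its group in Col1a1 and Col3a1.

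Males and females were compared within each treatment and day, and 0 of the 10 genes were called by edgeR or DESeq2 in any of the 6 comparisons. Of 60 values, 9 had an unadjusted edgeR p under 0.05. The share of all genes with such a p ran from 3.04% (SCFA at 14 dpl) to 19.6% (controls at 14 dpl). The background of calls was 0.0385%, 0.044% and 0.572% of genes for controls at 3, 7 and 14 dpl. With SCFA it was 0.319%, 0.187% and 0.033%. In controls at 3 dpl, all 10 genes had a higher fitted level in males, by 0.05 (Col4a2) to 1.53 (Col1a1, SE 0.68, edgeR adjusted p 0.849) on the log2 scale. The share of all genes higher in these males is not given here, so the shared direction stands without a background. Col1a2 had 23.5, 18.8, 20.4 and 16.3 CPM in the same males and 10.9, 9.38 and 11.2 CPM in females, without overlap, at a log2 fold change of 1.05 (SE 0.37) and an edgeR adjusted p of 0.792. All female controls at 3 dpl belong to the first column run, and male controls 3 and 4 to the last. The fit includes the run, but the CPM values are not adjusted for it. The smallest adjusted p was 0.103, for Fn1 in controls at 14 dpl (log2 fold change 0.70, SE 0.24).

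The difference of the SCFA effect between the sexes, tested as an interaction at each day, gave 0 calls among the 10 genes by edgeR and by DESeq2. An unadjusted edgeR p under 0.05 was found for 4 of 30 values, and for 8.12% (7 dpl) to 11.2% (14 dpl) of all genes. For Col9a3 the male effect minus the female effect was -0.75 (SE 0.37, edgeR adjusted p 0.604) at 3 dpl, -0.28 (SE 0.35) at 7 dpl and -0.15 (SE 0.38) at 14 dpl on the log2 scale. Hence the call of Col9a3 in males at 7 dpl, with a 95% interval of the sex difference from -0.98 to 0.41, is not shown to be particular to males. The background of calls in the 3 interaction tests was 0%, 0.0055% and 0%.

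**Figure D4:**
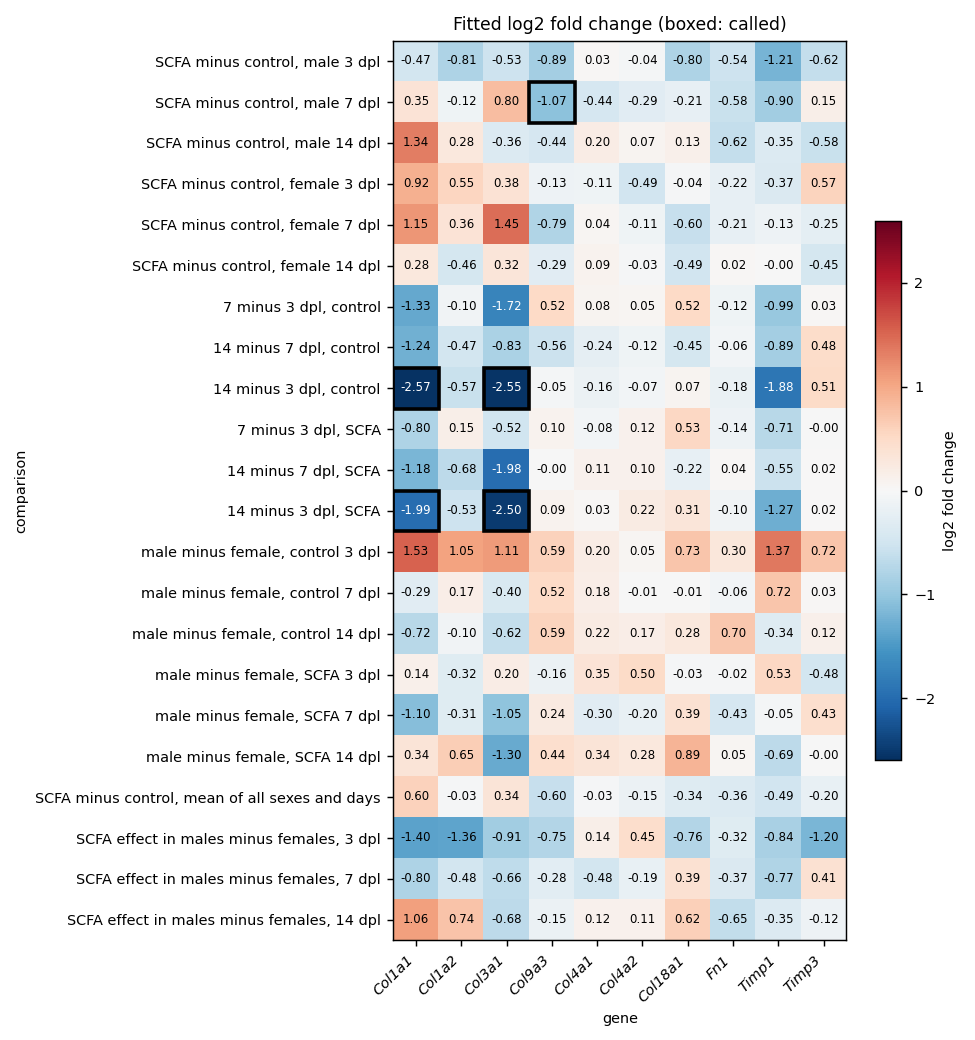
Fitted log2 fold changes of the 10 genes in the 22 comparisons, blue for lower and red for higher in the first-named term, with called values boxed. The 5 boxes are Col9a3 in males at 7 dpl (-1.07) and Col1a1 and Col3a1 from 3 to 14 dpl in controls (-2.57 and -2.55) and with SCFA (-1.99 and -2.496).

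Covariation between libraries was described after group and column run means had been removed from log2 CPM. The points are the 42 libraries, which share depth and tissue make-up for all genes. Over the 45 pairs of the 10 genes the median Pearson r was 0.201, with a range of -0.29 to 0.793. The highest were Col18a1 with Col9a3 (0.793), Col1a2 with Col18a1 (0.791), Col1a1 with Col3a1 (0.761), Col1a2 with Col9a3 (0.76) and the head-to-head pair Col4a1 with Col4a2 (0.707). Col1a2 was less like its own partner chain Col1a1 (r = 0.34) than like Col9a3 or Col18a1. Fn1 and Timp3 had an r of 0.602. Col4a1 with Timp3 was the lowest.

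The genes nearest to each of the 10 among all genes tested differed along the same lines. Col1a1 was most like Thbs1 (0.795), Col3a1 and Lox, and Col3a1 most like Col1a1 and Lum (0.729). Col18a1 was most like Fmod (0.963) and Olfml2a (0.949), Col9a3 like Tnfrsf1b (0.825), Slc6a13 and Rarres2, and Col1a2 like Ccnd2 (0.867), Gja1 and Fbln5. Col4a1 was most like Agrn (0.846), Dqx1 and Pxdn, and Col4a2 like Cacna1h (0.787), Cacna1g and B3gat1. The leading genes for Fn1 were Nbas (0.87), Tmem43 and Tspan9, and for Timp3 Dnajc3 (0.875), Flrt2 and Gtf3c4. Timp1 was most like Arpc1b (0.70), Serpina3n (0.678) and Chil1 (0.673), and its r with the sum of 8 gliosis markers was 0.722, the highest of its marker lists. Timp3 and Fn1 had their highest r with fibroblast and stroma (0.645) and with endothelial markers (0.617).

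**Figure D5:**
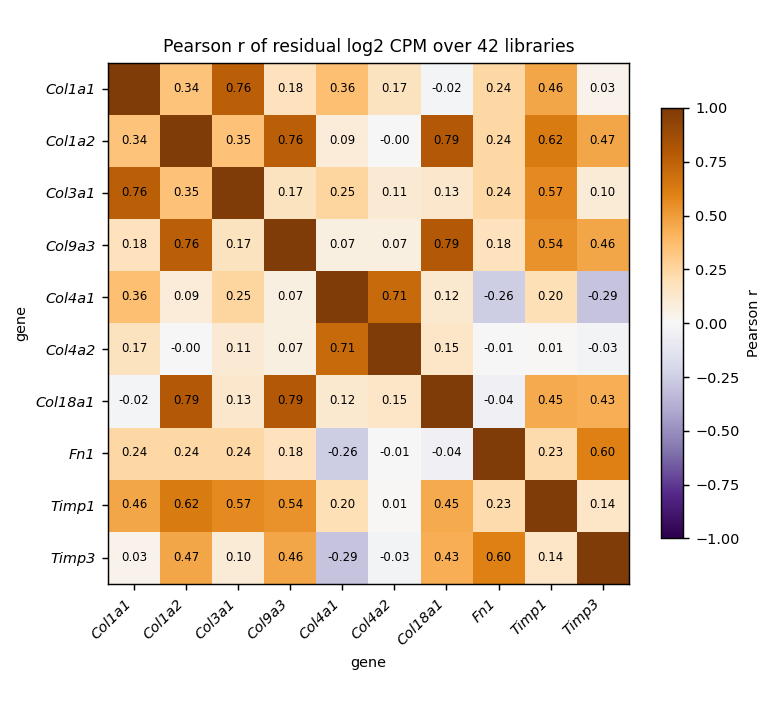
Pearson r between the 10 genes over 42 libraries, after removal of group and column run means from log2 CPM, from -1 (purple) to 1 (brown). Col1a2, Col9a3 and Col18a1 form a block of r between 0.76 and 0.793, apart from the pairs Col1a1 with Col3a1 (0.761) and Col4a1 with Col4a2 (0.707).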

How the data were processed

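Retinal RNA of 43 libraries was sequenced by the authors (paired-end, NovaSeq), who deposited raw counts of reads per gene without normalization. Per the labels the build was mm10 and DESeq2 was used. The aligner, annotation and strand setting are not given in the sources used here. The authors' labels name the groups in the library titles. The 10 genes and all lists were chosen with earlier results of these data known. Genes were named from GENCODE M21, which holds 54495 of 54532 identifiers.

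Counts were filtered by filterByExpr, scaled by TMM, and fitted in edgeR 4.0.16 (R 4.3.3) with 12 groups and the column run (first 31 or last 12 columns) as covariates, over 42 libraries. In 22 comparisons a gene was called where its fold change exceeded 1 on the log2 scale in either direction and its adjusted p (Benjamini-Hochberg, 18173 genes) was under 0.1. SE is the fold change over the square root of F. Groups hold 3 to 5 libraries, each a pool of 2 retinas, and the fit treated them as independent. Whether all libraries of a group came from separate mice is not stated in the sources used here. Text names all 10 genes, called genes of the matrix gene lists in comparisons where 1 of the 10 was called (at most 3 per list and comparison) and the 3 genes of highest r per gene (log2 CPM, prior count 2). Of the latter, 1 is not reported here. Col9a1, Col9a2, Col4a4, Col4a6, Ccn1 in the average SCFA effect and the called cell type markers fall outside this rule and were chosen after their values were seen.

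On simulated data of 17890 genes, SCFA was compared with control in males at 7 dpl. Of genes changed by 1.5 on the log2 scale, edgeR recovered 82% and DESeq2 78%. The simulation used an assumed spread, without column run differences and without group differences other than in the changed genes. These shares therefore need not hold for Col1a1, Col3a1 and Timp1, which varied most between libraries. Alternatives were DESeq2 1.42.0, RLE factors, no filter or at least 10 counts in every library, no column run, the first run only, a replicate block, other libraries and other thresholds, and each library left out in turn. Same-numbered SCFA and control libraries did not deviate together (mean r -0.0944 to 0.133 per comparison). Python 3.11.15, pandas 2.3.3 and matplotlib 3.10.9 were used for the rest.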

Additional observations from a re-analysis of the deposited data

Results flagged for a closer look

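In female SCFA retinas at 7 dpl, replicate 2 stood apart from the other 3 libraries, with 13.5 CPM of Col1a1 (next highest 1.98) and 19.8 CPM of Col3a1 (next highest 3.22). Its gap took up 0.943 and 0.856 of the range of the group. It is a library of the first column run, and it was also the highest of its group for Col1a2 (29.8 CPM) and Timp1 (2.61 CPM). These were 2 of 50 combinations of gene and group of 4 or more libraries examined, of which chance would give about 1 in 20.

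The library left out of the fits, female SCFA 3 dpl replicate 2, was above all controls in 5 of the 10 genes on the TMM scale, which raised its values 1.42-fold, and in 3 of the 10 by counts over library totals, a scale chosen after seeing the data. By TMM it had 244 CPM of Col4a1 and 125 CPM of Col4a2, where the highest other libraries had 37.0 and 34.6 CPM, and 126 CPM of Timp3, where the highest had 80.0 CPM. Unscaled, these were 171, 87.9 and 88.6 CPM, against highest values of 38.8, 36.7 and 85.1 CPM. Its 27.8 CPM of Col1a2 and 17.5 CPM of Col3a1 were above the highest controls (23.5 and 14.3 CPM) but not above all fitted libraries, and unscaled they were 19.5 and 12.3 CPM, under the highest controls (24.0 and 14.6 CPM). In that library lens markers summed to 209600 CPM, pigment epithelium markers to 1800 CPM (82.9 to 827.7 in the others), stroma markers to 198.1 CPM (15.17 to 53.33) and mural cell markers to 388.4 CPM (83.44 to 182.2). Their part in these levels was not tested.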

How the results depend on the processing

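Across SCFA comparisons the single call (Col9a3 in males at 7 dpl) became 5 calls with no filter on low counts. There were 3 calls with female SCFA 3 dpl replicate 2 put back, 3 with no fold threshold and 0 in the first column run only. With the libraries that the study listed there were 3 calls, and Col9a3 in males at 7 dpl was not among them. Without single libraries the number of calls ranged from 0 (male SCFA 7 dpl replicate 1 or male control 7 dpl replicate 3 left out) to 2 (male SCFA 14 dpl replicate 2 left out). The 4 day calls became 11 with no filter, 0 with at least 10 counts in every library (which drops Col1a1 and Col3a1 from the test), 0 with no column run, 0 in the first run, 0 at an adjusted p under 0.05, 2 with female SCFA 3 dpl replicate 2 and 1 with a replicate block. Without single libraries they ranged from 1 to 6. The 20 libraries without which 1 or 2 calls were left were all 6 controls and SCFA replicates of males 1 to 3 and females 2 to 4 at 14 dpl, and at 3 dpl female controls 1 and 3, male controls 1, 3 and 4, female SCFA 1 and 3 and male SCFA 3. Calls between the sexes went from 0 to 7 and those of the sex difference of the SCFA effect from 0 to 3 with no filter, and those of the average SCFA effect from 0 to 3 with no fold threshold. In these last 3 families, leaving out single libraries gave 0 to 0 calls. With no filter, standard errors were smaller (Col3a1 from 3 to 14 dpl in controls 0.234 in place of 0.573), and the cause was not tested. No called value changed sign. The replicate block changed no other call. Removal of male SCFA 7 dpl replicates 1 and 3, chosen after seeing the data, left all 5 counts as they were. Low counts limit Col1a1, Col3a1 and Timp1, with medians under 2 CPM over all libraries.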
